A study of Sus scrofa with 6 samples.

Results

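Membrane traffic genes are described here in mature pig oocytes, the egg cells, of prepubertal and adult females. They were taken by name: every probe set, the array's unit of measurement for a transcript, whose single gene symbol belongs to the RAB, ARF, ARL, SAR1, SEC, COP, TMED, VPS, SNX, VAMP, STX, SNAP, NSF, AP-1 to AP-4 adaptor, clathrin or exocyst families. The choice used no measured value. It gave 234 probe sets of 145 genes, out of 23999 probe sets that are not controls, of which 10069 carry a single symbol. By role, 53 genes were placed in an endocytic group, 63 in a secretory group and 19 in a SNARE group, and 10 fitted none of these.

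RNA came from 3 samples of oocytes of prepubertal females, described as developmentally incompetent, and 3 of adult females, described as competent, all labelled as biological replicates. No further treatment or genotype is given. Oocytes of both groups were taken from follicles of 2 to 6 mm, cultured for 42 to 44 h until metaphase II, and stripped of their cumulus cells with hyaluronidase and vortexing, so all had matured outside the animal. The number of oocytes or animals behind an array is not given, and p-values measure only the spread between these samples.

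Proteins that leave a cell or reach its surface are made at the endoplasmic reticulum, leave it in vesicles with a COPII coat, pass the Golgi, where COPI vesicles return material, and reach the surface in carriers that the exocyst tethers. Endocytosis runs inward: clathrin and the AP-2 adaptor form vesicles at the plasma membrane, and sorting nexins, retromer and other VPS proteins decide what is recycled or degraded. RAB and ARF proteins are small GTPases that mark each compartment, and SNAREs pull vesicle and target membranes together until they fuse. In an oocyte this machinery secretes the egg coat, takes up nutrients, and holds cortical granules, the secretory vesicles released at fertilization to block further sperm. These arrays measured the mRNA of the machinery and not its proteins.

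The arrays did not share a level as deposited: the mean signal of an array without its highest and lowest 2% was between 105 and 131 in prepubertal samples and between 121 and 159.9 in adult samples. Signals were therefore quantile normalized, and all signals below are normalized ones. Differences are prepubertal minus adult on a log2(signal + 16) scale, which understates the fold of dim genes. Their median over the 12000 tested probe sets was -0.01, against -0.20 as deposited. A smaller share of a transcript and less RNA in each oocyte cannot be told apart in these samples, whose number of oocytes is not given. Of 12 oocyte genes listed 5 had a probe set, ZP2, ZP3, ZP4, GDF9 and BMP15, and all were tested, with summed signals of 5342 to 5719 in prepubertal and 4335 to 5026 in adult samples (exact permutation p = 0.1, 2-sided, the smallest possible). ZP4 and ZP2 made up most of that sum. BMP15 averaged 211 in prepubertal and 155 in adult samples, without overlap. GDF9 averaged 251 in prepubertal and 324 in adult samples, and ZP3 averaged 473 in prepubertal and 482 in adult samples. Of 14 cumulus and granulosa genes with a probe set only 4 reached the level for testing. INHBA averaged 110 in prepubertal and 115 in adult samples, VCAN 52.5 and 46.1, INHA 45.3 and 36.7, and HSD3B1 38.8 and 32.5. Among those not tested, CYP19A1, FSHR, STAR and AMH had mean signals of at most 9.30, and the highest mean was 13.6, of PTX3 in adult samples. The summed signals of that list overlapped, at 268 to 335 in prepubertal and 282 to 291 in adult samples. Theca and stroma sums were 71.6 to 108 in prepubertal and 84.7 to 114 in adult samples, and endothelium sums 72.6 to 90.3 and 62.2 to 100. In the stroma list COL3A1 averaged 17.2 in prepubertal and 37.8 in adult samples, lower without overlap. The other tested stroma genes went the other way, COL1A2 at 50.1 and 42.3 and DCN at 20.3 and 15.2. The part of these differences in the results below was not tested.

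Membrane traffic genes did not separate prepubertal from adult oocytes at the level of single genes. Of the 234 probe sets, 160 were bright enough to be tested, for 120 genes, and none passed a limma adjusted p of 0.05 over the whole array, whether quantile normalized or as deposited. The lowest adjusted p was 0.252, for ARF1. Over all probe sets tested 0.117% passed after normalization and 0.475% as deposited. At an unadjusted p under 0.05 there were 18 member probe sets, 10 with higher and 8 with lower values in prepubertal oocytes. These were 11.2% of the members tested, close to the 10.8% of all probe sets, 5.06% higher and 5.79% lower. Without prepubertal replicate 2 the members were again 18, but 3 higher and 15 lower. As deposited there were 2 higher and 25 lower member probe sets, where 14.7% of all probe sets passed, 1.14% higher and 13.6% lower. Samples of the 2 groups did not overlap in 28 of 160 member probe sets, 14 higher and 14 lower, which is 17.5% against 16.3% of all probe sets (7.54% higher and 8.77% lower). As deposited 0 lay higher and 31 lower, against 1.81% and 17.1% of all probe sets, 18.9% together.

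How large a difference could have been missed can be read from the 95% intervals. For 136 of the 160 member probe sets (85.0%) the whole interval lay inside a 2-fold change either way, against 85.4% of all probe sets. This bound holds on the log2 scale with its added constant, which understates the fold of dim genes. Signals of dim genes could therefore differ by over 2-fold inside it, and for them the intervals do not exclude such a difference. Among the 120 genes, each represented by its brightest probe set, the median half-width of the interval was 0.41 on the log2 scale. The single gene differences themselves ran between -0.88 (VPS18) and 0.77 (RAB3D), with a median of 0.02. Of these genes 68 had higher and 52 lower values in prepubertal oocytes. As deposited 29 had higher and 91 lower values, with a median of -0.19, near that of all probe sets. All 39 genes whose sign depended on the scale moved the same way, from higher values after normalization to lower ones as deposited.

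The endocytic, secretory and SNARE groups were compared by counts and medians. In the endocytic group 45 genes were tested, 22 with higher and 23 with lower values and a median difference of -0.01. In the secretory group 52 genes were tested, 34 higher and 18 lower, with a median of 0.07. The SNARE group had 15 tested genes, 8 higher and 7 lower, and a median of 0.01. As deposited the medians were -0.27, -0.17 and -0.19 in that order of groups, and the counts of genes with higher values were 11, 14 and 3. Over all 12000 probe sets 48.9% had higher values after normalization and 25.2% as deposited. No member of any group passed the test.

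The same groups were followed array by array, as the median deviation of their genes from each gene's mean over the 6 arrays. Endocytic genes stood at -0.02, 0.09 and -0.08 in prepubertal replicates 1, 2 and 3 and at 0.03, 0.02 and 0.04 in the adult ones. Secretory genes stood at 0.07, 0.05 and 0.01 in prepubertal and 0.00, -0.03 and 0.00 in adult oocytes. SNARE genes stood at -0.14, 0.05 and 0.03 in prepubertal and 0.00, 0.04 and -0.07 in adult oocytes. The secretory medians of the 2 groups of samples did not overlap, by a margin of about 0.01, whereas the endocytic and SNARE ones did. Prepubertal arrays differed more among themselves than adult arrays in the endocytic and SNARE groups.

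**Figure D1:**
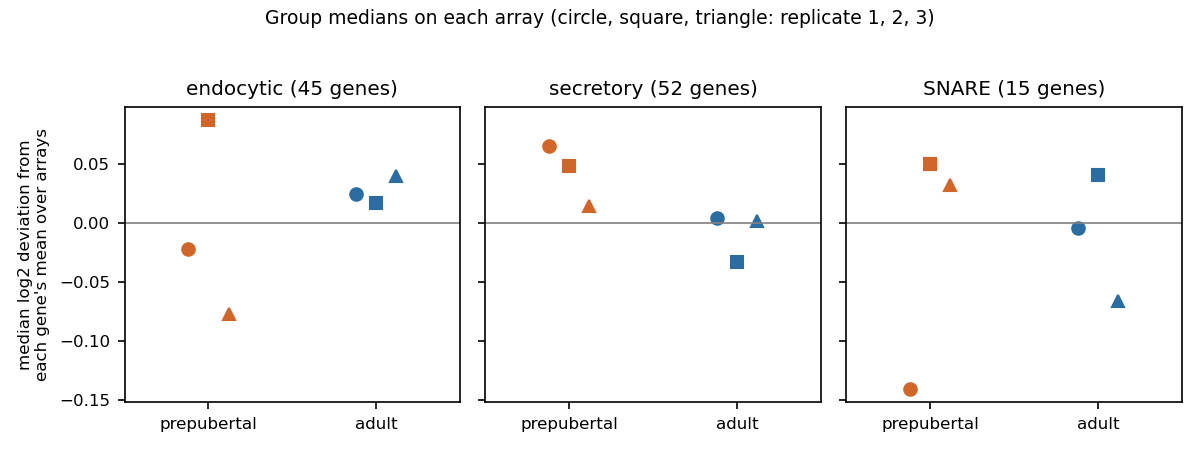
Median log2 deviation (y axis) of the tested genes of each group from each gene's mean over the 6 arrays, for prepubertal (orange) and adult (blue) arrays, after quantile normalization. Secretory medians are at 0.01 to 0.07 in prepubertal and -0.03 to 0.00 in adult arrays; SNARE genes reach -0.14 on prepubertal replicate 1.

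Vesicle formation at the plasma membrane came first among the endocytic roles. The 3 genes of the AP-2 adaptor among the members, for its beta, medium and small subunits, all had lower values in prepubertal oocytes. AP2M1, the medium subunit, which binds sorting signals of cargo receptors, had signals of 565, 593 and 524 in prepubertal and 642, 703 and 627 in adult oocytes. AP2S1, the small subunit, had 84.3, 86.7 and 88.8 in prepubertal and 111, 98.1 and 115 in adult oocytes. Neither overlapped between the groups, but the differences of -0.22 (95% interval -0.50 to 0.05) and -0.27 (-0.64 to 0.10) did not pass the test (adjusted p = 0.545 and 0.582). The dimmer AP2B1, a large subunit, differed by -0.56 with overlap. Clathrin itself had a difference of -0.02 for its light chain CLTA, -0.27 on a dimmer CLTA probe set, and 0.23 for its heavy chain CLTC. ARF6, the GTPase of the cell surface, had 90.6, 104 and 92.4 in prepubertal and 80.0, 74.6 and 73.7 in adult oocytes, a difference of 0.28 without overlap (adjusted p = 0.587).

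Sorting nexins bind endosomal membranes through a lipid-binding domain, and 11 of their 14 genes were tested, 6 with higher and 5 with lower values. SNX5, which bends endosomal tubules together with a partner nexin, had the second smallest p of all members. Its signals were 1366, 1052 and 1319.9 in prepubertal oocytes, each below every adult value of 1482, 1840.0 and 1693. Prepubertal oocytes averaged 1246 ± 169 and adult oocytes 1672 ± 179.9 (SD over 3 arrays each). On the log2(signal + 16) scale SNX5 was 1.34-fold lower. The difference of -0.42 ± 0.13 (SE) had a 95% interval of -0.71 to -0.14 and a limma adjusted p of 0.264. A second SNX5 probe set had 362, 468 and 411 in prepubertal and 523, 549 and 448 in adult oocytes, a difference of -0.29 with overlap. Both SNX5 probe sets had lower values in prepubertal oocytes on the normalized scale and, at -0.70 and -0.58, on the deposited one. The related nexins SNX1 and SNX6 had differences of 0.02 each, and the further SNX6 probe sets ran between -0.40 and 0.12. SNX3, a nexin that works with retromer and one of the brightest endocytic probe sets, averaged 1888 ± 164 in prepubertal and 2135 ± 264 in adult oocytes, a difference of -0.17 (95% interval -0.43 to 0.09). It was -0.10 without prepubertal replicate 1 and -0.07 without adult replicate 3.

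VPS genes, named after yeast mutants that missort proteins of the vacuole, belong to several complexes. Retromer returns receptors from endosomes to the Golgi and the cell surface. Its subunit VPS29 had signals of 457, 510.0 and 679 in prepubertal and 343, 368 and 422 in adult oocytes, so that all prepubertal values lay above all adult ones. This gave a log2 difference of 0.51 ± 0.17 (SE; 95% interval 0.14 to 0.87; limma adjusted p = 0.295). As deposited the difference was 0.23 and the samples overlapped. The other measured retromer subunit with a tested probe set, VPS26A, differed by 0.06, and its second probe set by -0.24.

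HOPS and CORVET are tethers that hold late and early endosomes before fusion, and of their 5 tested genes 2 had higher and 3 lower values. VPS18, a core subunit of both, had 3.15, 38.1 and 29.7 in prepubertal and 38.8, 58.3 and 56.1 in adult oocytes. No prepubertal value reached the lowest adult one, and prepubertal replicate 1 alone lay near background. Its difference was -0.88, the lowest of all member genes, with a 95% interval of -1.63 to -0.12 and an adjusted p of 0.388. Without prepubertal replicate 1 the VPS18 difference was -0.41. A dimmer VPS18 probe set, not tested, averaged 19.1 in prepubertal and 9.999 in adult oocytes, the opposite order. The other subunits VPS11, VPS16, VPS39 and VPS41 differed by 0.29, -0.18, 0.10 and -0.27.

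ESCRT complexes pinch cargo into the endosome's interior, and 4 of their 6 tested genes had higher values. VPS28 differed by 0.75, carried by 112 on prepubertal replicate 3 against 23.6 and 36.7 on the others, while adult arrays had 25.9, 39.9 and 7.82. The second VPS28 probe set differed by -0.00, so the gene has no single value. VPS4A, the ATPase that takes ESCRT apart, had 32.3, 62.6 and 23.3 in prepubertal and 31.4, 11.2 and 16.4 in adult oocytes (0.61, adjusted p = 0.498). VPS52 and VPS53, subunits of the GARP tether of the Golgi, differed by 0.00 and -0.13. VPS72, a VPS gene by name, encodes a subunit of chromatin remodelling complexes that handle a histone variant. Its signals were 51.5, 74.9 and 41.1 in prepubertal and 85.8, 98.2 and 78.5 in adult oocytes, with no overlap (-0.55 ± 0.21 SE, adjusted p = 0.379). A second VPS72 probe set differed by -0.18 and overlapped.

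Endosomal RAB proteins made up 9 tested genes, 3 with higher and 6 with lower values. RAB11A, which directs recycling endosomes to the surface, had 2498, 2529 and 2657 in prepubertal and 1959.8, 2161 and 2426 in adult oocytes. The samples did not overlap, the difference was 0.23 (95% interval 0.00 to 0.46; adjusted p = 0.454), and it was -0.03 as deposited. A further RAB11A probe set differed by -0.06, so the probe sets did not share a direction. RAB35, another recycling RAB, differed by -0.41 and -0.37 on its probe sets, both with overlapping samples. RAB11B differed by -0.60, the lowest of these genes, with overlapping samples and 8.53 on prepubertal replicate 1. RAB32 differed by 0.21 without overlap (limma adjusted p = 0.614), and RAB9A and RAB34 by -0.21 and 0.15 with overlap. RAB7A of late endosomes and RAB14 and RAB22A of early ones differed by -0.01, -0.03 and -0.02.

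**Figure D2:**
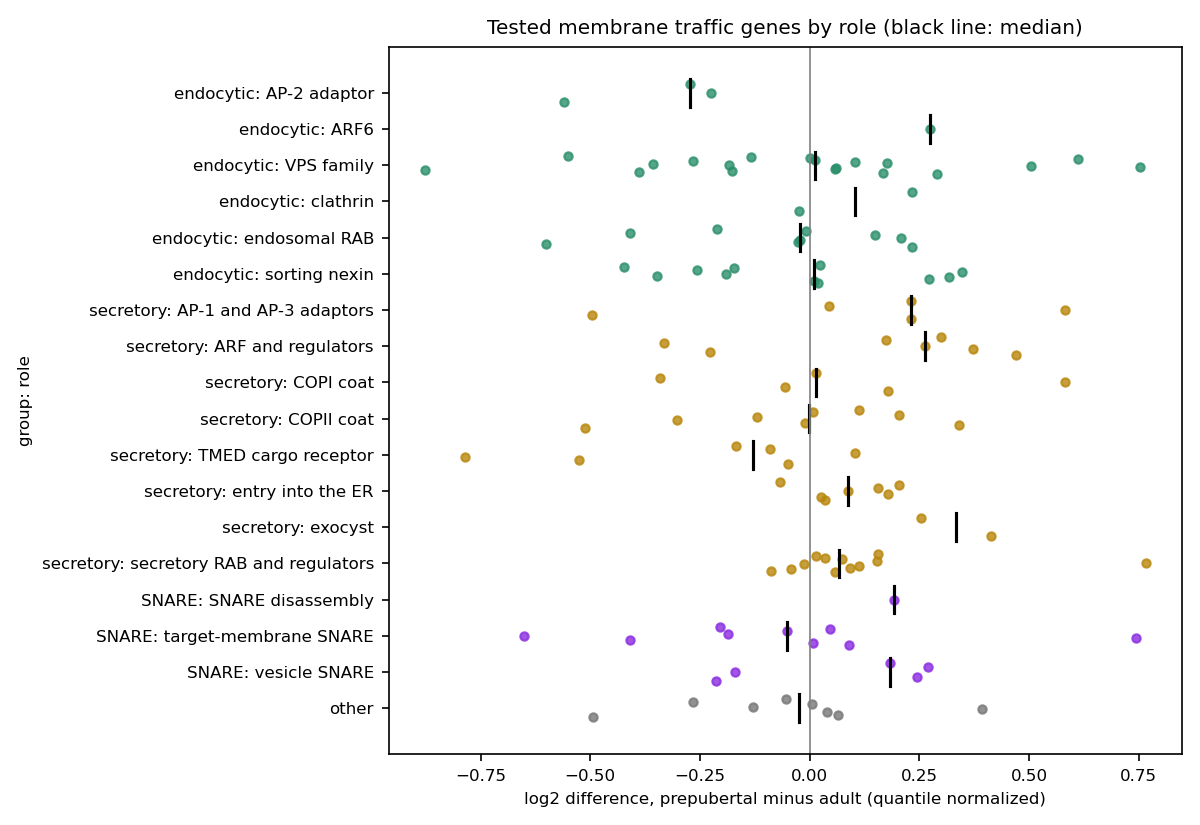
Log2 difference, prepubertal minus adult, after quantile normalization (x axis) of each tested gene by group and role (y axis), 1 point per gene at its brightest probe set, with a black line at the median of the role. Points of most roles lie on both sides of 0; the 3 AP-2 genes are all below it and the medians of the 3 main groups are -0.01, 0.07 and 0.01.

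Secretory traffic starts with entry into the endoplasmic reticulum, where the SEC61 channel with SEC62 and SEC63 passes new proteins across the membrane and signal peptidase trims them. All 7 of these genes were tested, 6 with higher and 1 with lower values on the normalized scale and all 7 with lower ones as deposited. At the brightest probe set of each gene their differences were small, between -0.07 (SEC63) and 0.20 (SEC62). The 3 tested SEC63 probe sets ran between -0.20 and 0.24. SEC11A, the catalytic subunit of signal peptidase and one of the brightest secretory probe sets, had 9551, 8887 and 9295 in prepubertal and 8721, 8887 and 9473 in adult oocytes. Its difference of 0.03 had the interval -0.13 to 0.19. SEC61A1, the channel itself, had 104, 103 and 99.2 in prepubertal and 87.3, 93.1 and 85.2 in adult oocytes, without overlap but at an adjusted p of 0.725. A dimmer SEC61A1 probe set differed by 0.07.

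COPII vesicles carry proteins out of the endoplasmic reticulum, and of 8 tested genes 4 had higher and 4 lower values. SAR1A, the GTPase that starts the coat, had 116, 96.3 and 83.3 in prepubertal and 154, 141 and 144 in adult oocytes. All adult values lay above all prepubertal ones, with a log2 difference of -0.51 ± 0.18 (SE; 95% interval -0.89 to -0.13; limma adjusted p = 0.314). The suffix of this probe set on the array marks probes shared by several sequences. The other SAR1A probe sets did not follow it: one had 73.4, 97.0 and 101 in prepubertal and 71.4, 60.4 and 74.7 in adult oocytes, a difference of 0.32, and the dimmest differed by -0.17. SAR1A therefore has no single direction. The coat subunits SEC23A, SEC24C, SEC24D and SEC31A differed by -0.01, 0.20, 0.01 and 0.11. SEC23B, also a coat subunit, differed by -0.30 with overlap, and by -0.56 without overlap as deposited. SEC23IP, a partner of SEC23, had 2369.9, 2436 and 2394 in prepubertal and 2565, 2572 and 2697 in adult oocytes, without overlap but only 1.09-fold lower (adjusted p = 0.665).

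COPI vesicles return proteins from the Golgi, and their coat assembles on ARF1. The gamma subunit of the coat comes from a pair of genes. COPG1 had 211, 281 and 205 in prepubertal and 221, 136 and 108 in adult oocytes, a difference of 0.58 ± 0.23 (SE; limma adjusted p = 0.388). Adult replicate 1 lay among the prepubertal values, and without adult replicate 3 the difference was 0.38. COPG2 had 839.6, 1036 and 1024 in prepubertal oocytes and 1211, 1143 and 1322 in adult ones. There the groups did not overlap, with a difference of -0.34 ± 0.13 (adjusted p = 0.355). Other subunits were nearer 0, with 0.18 for COPA and 0.01 for COPZ1. COPB1, one of the brightest secretory probe sets, had 5890.0, 4432 and 5132 in prepubertal and 5559.8, 5491 and 4921 in adult oocytes (-0.05, and -0.03 on its dimmer probe set).

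ARF GTPases recruit coats and lipid enzymes to the Golgi. ARF1 had the smallest p of all members. Its signals were 423, 454 and 506 in prepubertal oocytes and 331, 357 and 297 in adult ones, all higher in prepubertal oocytes. Prepubertal oocytes averaged 461 ± 42.2 and adult oocytes 328 ± 30.3 (SD over 3 arrays each). On the log2(signal + 16) scale ARF1 was 1.38-fold higher. The difference of 0.47 ± 0.14 (SE) had a 95% interval of 0.16 to 0.78, and limma gave an unadjusted p of 0.00683 and an adjusted p of 0.252. As deposited the difference was 0.19 and the samples overlapped. ARF4, which shares ARF1's work at the Golgi, had 4321, 4135 and 4243 in prepubertal and 5013, 5066 and 4791 in adult oocytes. That was 1.17-fold lower, without overlap (-0.23 ± 0.08 SE, adjusted p = 0.333), and -0.47 as deposited. ARL1, an ARF-like protein that recruits tethers to the trans-Golgi, had 1266, 1185 and 1152 in prepubertal and 889.8, 1023 and 1012 in adult oocytes. It differed by 0.30 ± 0.12 (SE; adjusted p = 0.381) and by 0.02 as deposited.

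TMED proteins are cargo receptors of early secretory vesicles, and 5 of their 6 genes had lower values in prepubertal oocytes after normalization and all 6 as deposited. TMED3 had 11.8, 37.96 and 8.81 in prepubertal and 42.4, 60.5 and 26.6 in adult oocytes, a difference of -0.79 (95% interval -1.50 to -0.07; adjusted p = 0.410). The prepubertal values of replicates 1 and 3 were near background, and the samples overlapped. TMED7 had 1644, 1624 and 1611 in prepubertal and 1977, 1781 and 1734 in adult oocytes, without overlap, at -0.17 (adjusted p = 0.582). Its other tested probe sets differed by -0.20 and -0.07. TMED2, also a cargo receptor, had 63.5, 10.6 and 20.1 in prepubertal and 49.0, 48.1 and 38.8 in adult oocytes, with overlap. Its difference was -0.53 (95% interval -1.27 to 0.22; adjusted p = 0.597). The tested probe sets of TMED4 ran between -0.02 and 0.10 and those of TMED5 between -0.09 and 0.04, so neither gene had a single direction.

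Adaptors AP-1 and AP-3 sort proteins at the trans-Golgi and on endosomes, and of their 5 tested genes 4 had higher and 1 lower values. AP1S1 differed by -0.50, AP1B1 and AP3S2 by 0.23 each and AP3M1 by 0.04, all with overlapping samples. AP3B1, a large subunit of AP-3, which supplies lysosome-related organelles, had 92.8, 208 and 216 in prepubertal and 103, 113 and 93.6 in adult oocytes. Prepubertal replicate 1 lay below all adult values and the other prepubertal samples above them. The difference was 0.58 ± 0.26 (SE; limma adjusted p = 0.450). Without prepubertal replicate 1 it was 0.94 and passed at an adjusted p of 0.027, and AP3B1 was the only member to pass in any of the fits that left out an array. In the other alternatives its adjusted p was up to 0.761.

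RAB proteins of the secretory route and their regulators had 12 tested genes, 9 with higher and 3 with lower values. RAB3D, a RAB of regulated secretory vesicles, had 27.2, 74.3 and 41.4 in prepubertal and 29.03, 18.98 and 12.8 in adult oocytes. The difference was 0.77 ± 0.30 (SE; 95% interval 0.12 to 1.41; adjusted p = 0.378), the highest among member genes, and 0.49 without prepubertal replicate 2. Adult replicate 1 lay above prepubertal replicate 1. A second probe set differed by 0.34, with 48.9 on prepubertal replicate 2 and at most 16.8 on the other arrays. The dimmest, not tested, averaged 18.3 in prepubertal and 9.98 in adult oocytes. RAB3A, which works in the same step, differed by -0.01. At their brightest probe sets the other 11 secretory RAB genes and regulators differed by between -0.09 (RAB13) and 0.15 (RAB8A), among them RAB1A, RAB2A, RAB10 and RAB18. The 4 tested RAB10 probe sets ran between -0.07 and 0.32, and the 3 of RAB3GAP2 between 0.07 and 0.44. Of the exocyst, EXOC2 and EXOC6 differed by 0.41 and 0.25, both with overlapping samples.

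SNAREs act at the last step, and 15 of their 19 genes were tested. STX10, a syntaxin of the trans-Golgi, had 38.7, 93.4 and 64.1 in prepubertal oocytes and 32.6, 24.9 and 35.2 in adult ones. The groups did not overlap, and the difference was 0.74 ± 0.26 (SE; 95% interval 0.18 to 1.31; limma adjusted p = 0.323). A further STX10 probe set, not tested, averaged 4.58 in prepubertal and 3.02 in adult oocytes. STX11, a syntaxin known for granule release in immune cells, had 79.9, 48.5 and 81.3 in prepubertal and 89.4, 107 and 163 in adult oocytes. Its difference was -0.65 ± 0.24 (adjusted p = 0.351) on the normalized and -0.83 on the deposited scale, without overlap on either, and -0.43 without adult replicate 3 on the normalized one. The blood and immune marker list had probe sets for PTPRC, CD14 and HBB. PTPRC and CD14 had means of 11.2 and 10.4 in prepubertal and 20.9 and 19.4 in adult oocytes, near background and with overlapping samples. HBB, a blood marker and the only one bright enough to be tested, averaged 226 in prepubertal and 262 in adult oocytes. The summed signals of the list overlapped, at 171 to 384 in prepubertal and 237 to 380 in adult oocytes. The part of blood or immune cells in the STX11 difference was not tested.

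VAMP7, a vesicle SNARE of late endosomes and lysosomes and one of the brightest SNARE probe sets, had 2351, 2058 and 1790.4 in prepubertal and 1750.2, 1635 and 1719 in adult oocytes. The difference was 0.27 ± 0.12 (SE; adjusted p = 0.434), 0.18 without prepubertal replicate 1 and -0.01 as deposited, so its direction depends on the scale. STX6, a syntaxin of the trans-Golgi and endosomes, had 3160.3, 3081 and 3539 in prepubertal and 3242, 3152 and 3057 in adult oocytes, which overlapped. Its difference was 0.05, with an interval of -0.16 to 0.25, and -0.22 as deposited. SNAP23, a partner of surface syntaxins in many tissues, had 872, 737 and 732 in prepubertal and 716, 714 and 761 in adult oocytes (0.09). NSF, the ATPase that pulls spent SNARE complexes apart, differed by 0.19 with overlap and by 0.36 on a dimmer probe set. The gene SNAP91 is in this group by its name only, since it encodes a clathrin assembly protein. It had 61.2, 47.5 and 43.6 in prepubertal and 76.2, 72.5 and 67.7 in adult oocytes (-0.41, adjusted p = 0.475).

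**Figure D3:**
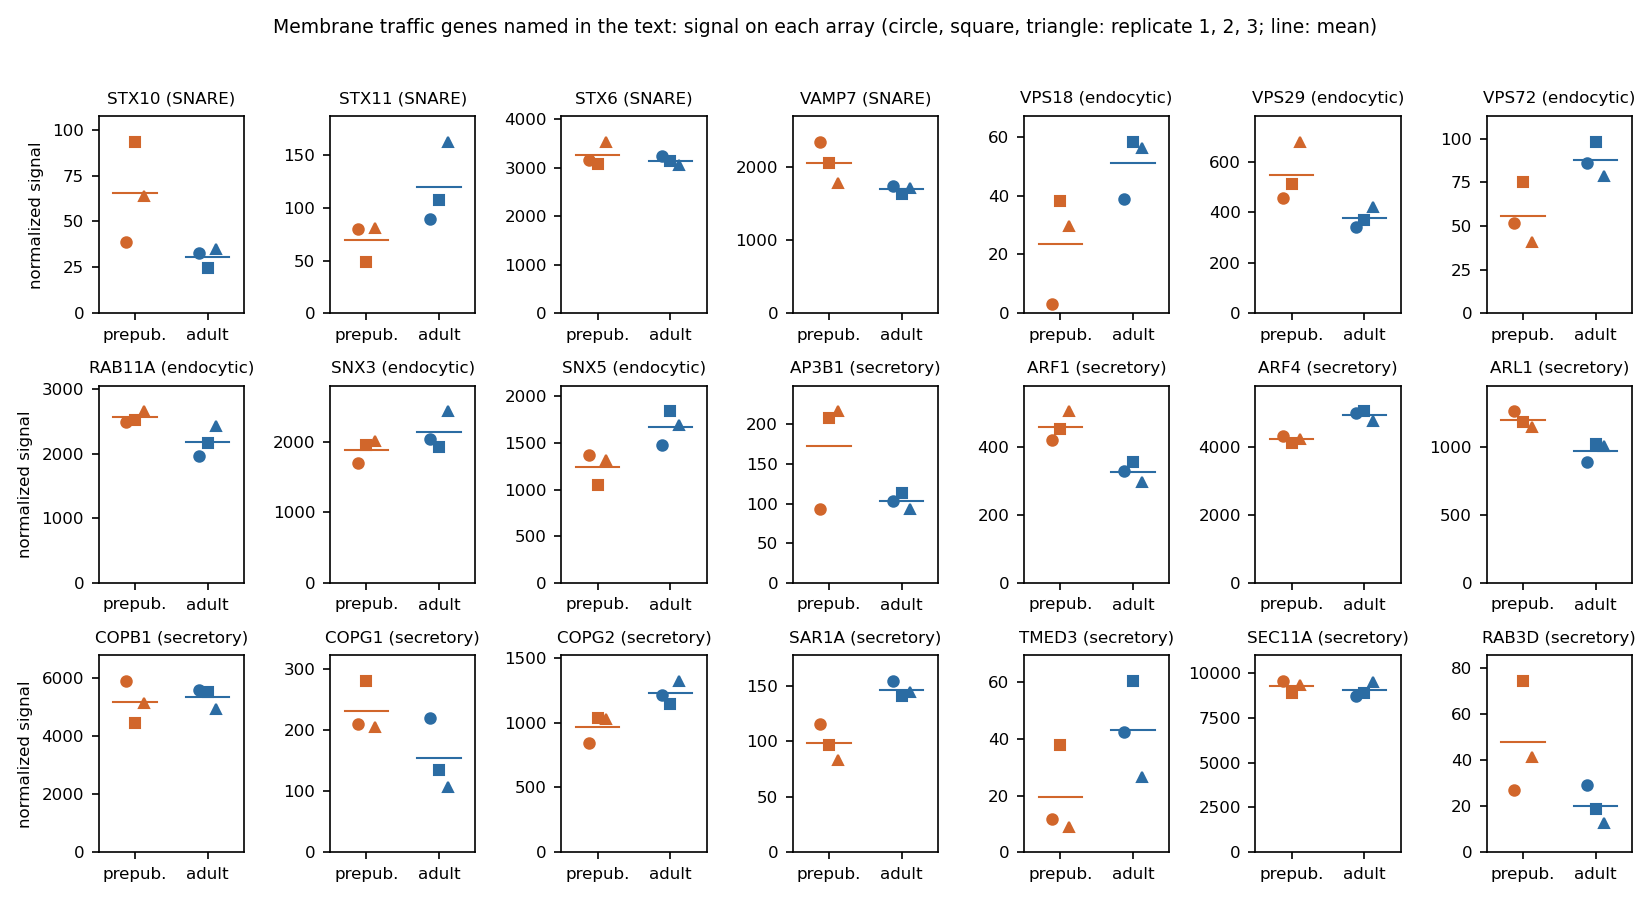
Normalized signal (y axis, linear from 0) of the 21 genes chosen for the text, on 3 prepubertal (orange, left) and 3 adult (blue, right) arrays, with a line at each group's mean. In 6 of the genes all prepubertal values are above, and in 7 all are below, the adult ones; AP3B1 shows prepubertal replicate 1 apart from replicates 2 and 3.

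**Figure D4:**
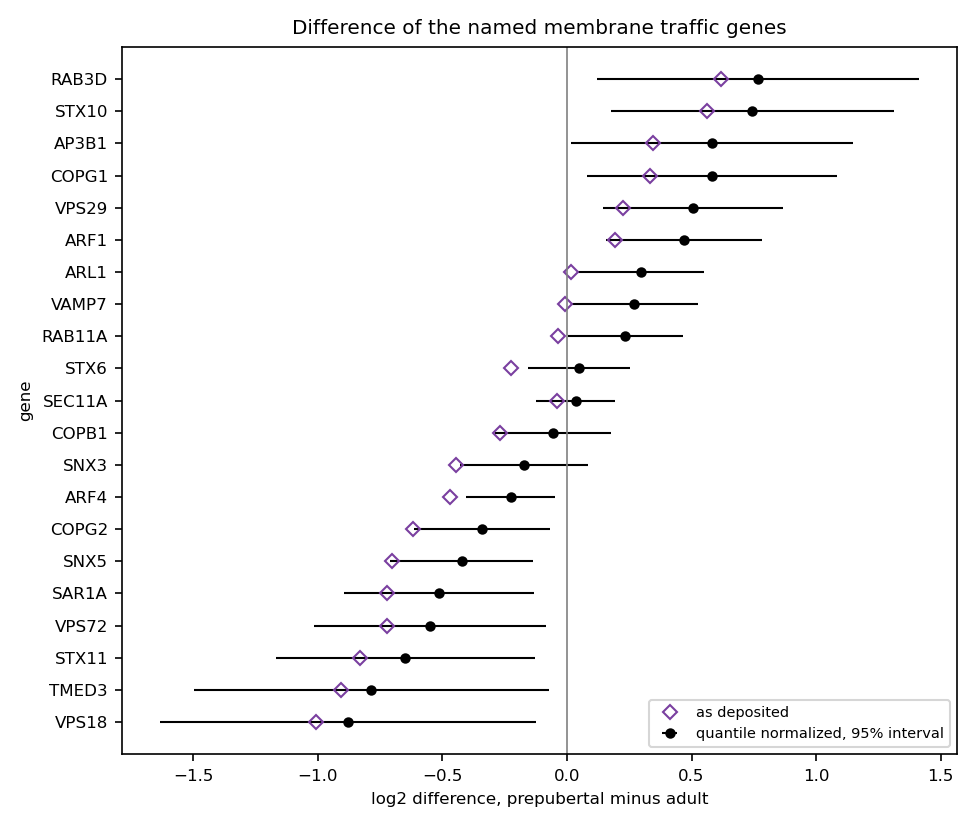
Log2 difference, prepubertal minus adult (x axis), of the same 21 genes (y axis), as black points with 95% intervals after quantile normalization and as open diamonds for deposited values. Deposited values lie to the left of the normalized ones for every gene shown, and VAMP7, RAB11A, STX6 and SEC11A are on opposite sides of 0.

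Of these 21 genes, 7 had lower values in all prepubertal samples than in any adult one both after normalization and as deposited: SNX5, SAR1A, ARF4, STX11, COPG2, VPS72 and VPS18. As deposited none had higher values without overlap. In the background 8.77% of probe sets lay lower without overlap after normalization and 17.1% as deposited. The genes were chosen for a small p or a bright signal, so this count describes them and supports nothing further.

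Ratios of 2 probe sets within an array were set out for 10 pairs of related genes. The pairs were chosen after their values had been seen, some for members with differences of opposite sign, and were not tested, so how many of them overlap is no result. The log2 ratio of ARF1 to ARF4, as deposited, was -3.33, -3.17 and -3.04 in prepubertal and -3.84, -3.79 and -3.91 in adult oocytes, a difference of 0.66 (0.70 after normalization). For COPG1 to COPG2 it was -1.95, -1.80 and -2.22 in prepubertal and -2.41, -2.95 and -3.46 in adult oocytes, a difference of 0.95 (0.92 after normalization). The ratio of SAR1A to SAR1B differed by -0.95 as deposited and -0.85 after normalization, with the disagreement among SAR1A probe sets given above, and that of VAMP2 to VAMP3 by 0.50 and 0.42. Some ratios depended on the scale: SEC11A to SEC11C differed by 0.22 as deposited and by 0.0087 after normalization. The ratios of SEC23A to SEC23B, SEC24C to SEC24D, SEC11A to SEC11C, RAB11A to RAB11B, RAB3A to RAB3D and SNX5 to SNX6 overlapped. Such a ratio shows unequal values within an array and not which gene differs.

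**Figure D5:**
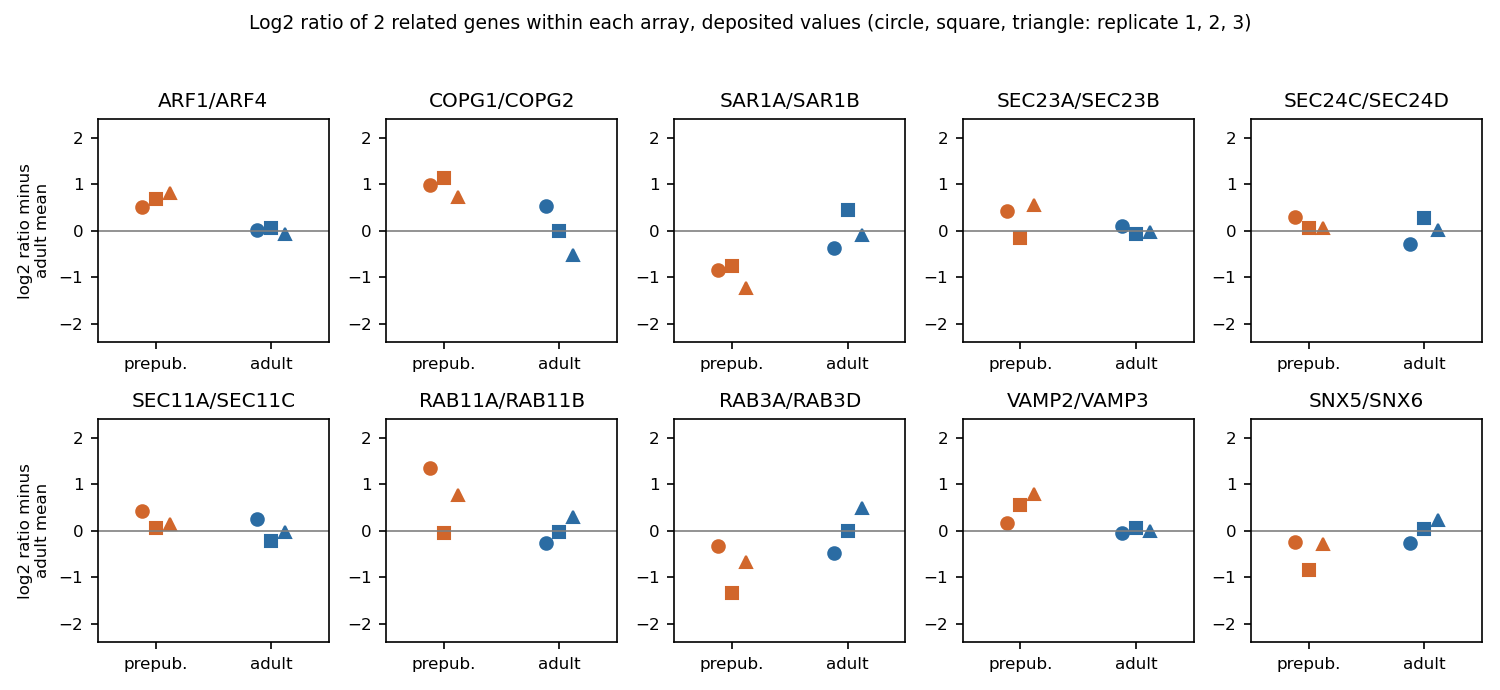
Log2 ratio of 2 related genes within each array, minus the mean of the adult arrays (y axis), for prepubertal (orange, left) and adult (blue, right) arrays, from deposited signals with 16 added. Ratios of ARF1 to ARF4, COPG1 to COPG2 and VAMP2 to VAMP3 are higher and that of SAR1A to SAR1B is lower on all prepubertal arrays; the other 6 pairs overlap.

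Many members were measured by several probe sets, which gives a check inside the array. Over 1 tested probe set was available for 31 genes. In 19 of them all probe sets had the same sign and in 12 they did not, with a median gap of 0.16 between the lowest and highest difference of a gene. The widest gaps were in SAR1A (0.83), VPS28 (0.75), RAB23 (0.52) and SNX6 (0.52). RAB23, a RAB of the primary cilium, ran between -0.13 and 0.39. RAB1A, SEC23A and VPS52 had gaps of at most 0.02.

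Members below the level for testing numbered 74 probe sets, with mean signals of at most 16.7. They left 25 genes without a tested probe set, among them the SNAREs SNAP25, SNAP29, STX4 and STX16, the endocytic CLTB, RAB4B, VPS26B and VPS33A, and the secretory COPB2, EXOC8 and RAB27B. SNAP25, a SNARE of neurons and of regulated secretion, averaged 1.56 in prepubertal and 6.12 in adult oocytes. At such signals no level can be given, and a probe set that fails on this array does not show that the mRNA was absent. EXOC8 averaged 25.8 in prepubertal and 7.01 in adult oocytes and was not tested.

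Membrane traffic genes outside these families were read from a separate list of 116, including Golgi tethers, COG and TRAPP subunits, ESCRT and dynamin genes. Of these 66 had a probe set and 51 were tested, with no dynamin gene among the tested ones. None passed in limma after normalization or as deposited, with 19 higher and 32 lower and a median of -0.03. BET1, a SNARE between the endoplasmic reticulum and Golgi, had 646, 800.4 and 949 in prepubertal and 396, 495 and 607 in adult oocytes. The groups did not overlap, at 0.66 ± 0.18 (SE; adjusted p = 0.192), and BET1 was the only gene of this list at an unadjusted p under 0.05 in its brightest probe set. KDELR2, the receptor that returns resident proteins to the endoplasmic reticulum, differed by 0.30 on its brightest probe set (adjusted p = 0.507) and by 0.36 and -0.28 on the others. ERGIC2 and TRAPPC1, both of early secretory traffic, differed by -0.27 and -0.48. A dimmer ERGIC2 probe set differed by 0.11, the opposite sign. TRAPPC1 was dim, with 8.20, 23.8 and 38.3 in prepubertal and 36.3, 38.3 and 33.9 in adult oocytes, which overlapped (adjusted p = 0.576).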

How the data were processed

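RNA of 3 prepubertal and 3 adult oocyte samples was measured on Affymetrix porcine arrays. Messenger RNA was isolated with beads through its poly(A) tail, and biotinylated cRNA was made in 2 amplification cycles, per the labels' protocols, which favours 3′ ends; the 5′ control probe sets of actin and GAPDH had signals of at most 16.7. The deposited signal intensities are linear and were made with MAS5, as named in the submitters' processing notes; its version and scaling are not given in the sources used. Columns left without a sample numbered 0. The table held 24123 probe sets, of which 124 controls were left out.

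Values were quantile normalized as log2(signal + 16). Probe sets with a mean at or above the median, 12000 in all, entered a limma fit (version 3.58.1, R 4.3.3; eBayes with an intensity trend, 2-sided, Benjamini-Hochberg adjustment over all of them). Intervals are at 95%. The number of arrays limits the precision. In simulated data for this comparison, with 200 of 12000 probe sets changed, the fit recovered 48.3% of those changed by 1 and 88.9% of those changed by 2 on the log2 scale. The simulated noise was drawn separately for each probe set and array from the spread seen here, with no difference shared by an array. Recovery in the real arrays can therefore differ.

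Symbols came from the platform's annotation, and 1 SEC gene is not analysed here. Of the 234 member probe sets 231 were found by Entrez identifier in RefSeq's table for Sscrofa11.1, with 0 symbols changed. No coordinates or sequences are given, since the values carry no build. The brightest tested probe set stood for its gene. Genes were named if past the threshold, among the 8 smallest p in each direction, or among the 2 smallest p or 2 brightest of a group; from the outside list, the 2 smallest p in each direction. Other members are given to describe their role and were picked with their values known. Members, lists and settings were chosen with earlier results of these data known.

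Alternatives were deposited values, other scalings, added constants, filters and variance models, array weights, a replicate block and leaving out each array. Same-numbered arrays correlated at 0.08, 0.02 and 0.03 in their deviations from the group means, and arrays with different numbers at -0.06 to 0.04. With 3 arrays in each group these values cannot settle whether the replicate numbers pair the samples. The main fit did not pair them.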

Additional observations from a re-analysis of the deposited data

How the results depend on the processing

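No membrane traffic probe set passed under any alternative that kept all arrays, at an adjusted p of 0.05, or at 0.1 in the quantile-normalized fit; leaving out arrays gave 0 to 1, the 1 being AP3B1. At an unadjusted p under 0.05 the 18 members became 11 without an intensity trend and 8 to 26 when an array was left out; 8 was without adult replicate 2 (4 higher, 4 lower) and 26 without prepubertal replicate 1 (15 and 11). As deposited they were 27, 2 higher and 25 lower, and 21 with median centring, 2 higher and 19 lower. Over all probe sets the 14 called (3 higher, 11 lower) became 57 as deposited (4 higher, 53 lower), 7 with median centring (1 and 6), 2 with a constant of 1, 26 with 64, 2 with no filter, 54 with the upper quartile filter (20 and 34), 0 without an intensity trend, 84 with array weights (31 and 53), 32 with the replicate block (10 and 22) and 77 at an adjusted p of 0.1 (30 and 47). Leaving out an array gave 0 (without adult replicate 2) to 194 (without prepubertal replicate 1), and 6, 3, 2 and 4 without prepubertal replicate 2, prepubertal replicate 3, adult replicate 1 and adult replicate 3. The replicate block called 0 members, had 20 at an unadjusted p under 0.05 and changed no other call among the members. Group medians as deposited were -0.27 (endocytic), -0.17 (secretory) and -0.19 (SNARE), and with median centring -0.18, -0.087 and -0.10; leaving out arrays gave -0.07 to 0.03, 0.0487 to 0.0917 and -0.04 to 0.08. Placing SNAP91 with endocytic genes and leaving out VPS72, chosen after seeing the data, gave -0.01 (endocytic) and 0.03 (SNARE). Of 332 values of the named genes under alternatives, 324 kept direction and side of the threshold. The 7 with the other sign were COPB1 without prepubertal replicate 2 (0.0471; -0.154 to 0.0471 when an array was left out), as deposited RAB11A (-0.0347), SEC11A (-0.0413), STX6 (-0.22) and VAMP7 (-0.00938), and STX6 with median centring (-0.14) and without prepubertal replicate 3 (-0.0124; -0.0124 to 0.0850 when an array was left out); AP3B1 passed without prepubertal replicate 1. SNX5 stayed between -0.70 and -0.31 in all of them (adjusted p 0.109 to 0.633), ARF1 between 0.19 and 0.53 (0.121 to 0.708). The causes of these shifts were not tested. Dim genes such as VPS18, TMED3, RAB3D and STX10 lie near background, where intervals are wide.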
